A study of Rattus norvegicus with 2 samples.

Results

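The interstitial collagens I, III, V and VI were followed as 8 genes, Col1a1, Col1a2, Col3a1, Col5a1, Col5a2, Col6a1, Col6a2 and Col6a3, taken by their symbols from the 32623 genes of both count matrices. 7 of the 8 symbols were found, with the identifiers ENSRNOG00000003897 (Col1a1), ENSRNOG00000011292 (Col1a2), ENSRNOG00000003357 (Col3a1), ENSRNOG00000008749 (Col5a1), ENSRNOG00000003736 (Col5a2), ENSRNOG00000001249 (Col6a1) and ENSRNOG00000001254 (Col6a2). Col6a3 was not analysed here, so collagen VI below means Col6a1 plus Col6a2. Single cells came from the cochlear duct of Sprague-Dawley rat pups aged 1 day (P1) or 7 days (P7). The labels name no treatment and no altered gene for either group. Per the study's methods, the stria vascularis, spiral ligament and spiral ganglion were dissected away. Each age was 1 library made from pooled tissue of many animals by a droplet method that counts the 3′ ends of transcripts with molecular identifiers (UMIs). With 1 library an age, no difference below was tested, and all 95% intervals are exact ones that cover counting error only, not the spread between animals.

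Fibrillar collagens are secreted as procollagen trimers and assembled outside the cell. The chains of Col1a1 and Col1a2 join in collagen I, the main tensile fibre, whereas collagen III is built from the Col3a1 chain alone and shares fibrils with collagen I in soft connective tissue. Collagen V, from Col5a1 and Col5a2, sets up new fibrils and limits their width, and collagen VI forms beaded filaments close to the cell surface. In the cochlea these collagens belong to the connective tissue around the sensory epithelium, such as the spiral limbus and the spiral ligament.

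The limits of the study on genes, UMIs and mitochondrial share left 12779 of 14068 barcodes at P1 and 12581 of 14501 at P7, with a median of 6565 and 6878 UMIs a cell. The libraries shared 60 barcodes, 53 of them among kept cells. Levels are given as UMIs of a gene per 1000000 UMIs of the cells named (CPM). One transcript gives UMIs at its end whatever its length, so chains were compared on this scale without a length correction, but whether the counted end of each gene was complete in the annotation was not tested. Cells were put into classes by scores of marker lists, none of which held a member. The labels call the cells greater epithelial ridge cells, yet the epithelial-like class, which scored for Epcam, Cdh1, Tectb and similar genes, held 1.78% of kept cells at P1 and 1.25% at P7. Mesenchyme-like and glia-like classes held most cells, and glia-like cells were 14.7% of the P1 cells and 29.9% of the P7 cells. Other properties also moved with age: ribosomal protein genes took 21.3% of UMIs at P1 and 15.8% at P7, mitochondrial genes 7.51% and 8.73%, and haemoglobin genes 0.168% and 0.461%. Their part in the results was not tested.

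Promoter sequences of 5 of the 8 members, Col1a2, Col5a1, Col5a2, Col6a1 and Col6a3, were in the RefSeq table for build GRCr8. They are shown for chains that differed between the ages in opposite directions, Col1a2 being higher and Col5a2 and Col6a1 lower at P7. A stretch of 100 bases, 5′ to 3′ on the strand of the gene, is shown for 3 of them, with an ATTGG (a reversed CCAAT box) and a TATAAA in capitals.
Col1a2, chr4:33518307-33518406, plus strand, bases 250 to 151 before the annotated start: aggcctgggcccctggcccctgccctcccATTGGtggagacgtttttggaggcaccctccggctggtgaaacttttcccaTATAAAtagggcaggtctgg
Col5a2, chr9:55090152-55090251, minus strand, bases 100 to 1 before the start: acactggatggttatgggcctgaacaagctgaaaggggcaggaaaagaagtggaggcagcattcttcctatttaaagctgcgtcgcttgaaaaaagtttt
Col6a1, chr20:11905590-11905689, plus strand, bases 100 to 1 before the start: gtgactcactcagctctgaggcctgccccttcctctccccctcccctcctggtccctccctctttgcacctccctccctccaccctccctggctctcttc
In Col1a2 the ATTGG began 221 and the TATAAA 170 bases before the annotated start. Over the 250 bases before the start, searched on both strands, Col1a2 was the 1 of 5 members with CCAAT or ATTGG, which 34.0% of 33469 promoters held, and the 1 of 5 with TATAAA or TTTATA, which 12.9% held. The letters found are a description and were not linked to a level.

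Over all kept cells, Col3a1 was the most abundant member at both ages and was higher at P7, while the chains of collagens V and VI and Col1a1 were lower. Col3a1 had 684 CPM at P1 and 1480 CPM at P7, a log2 P7/P1 ratio of 1.11 (95% interval 1.10 to 1.13). Col1a1 had 255.8 and 157 CPM, a log2 ratio of −0.70 (−0.73 to −0.67). Its partner Col1a2 had few counted UMIs at both ages, 3.79 and 13.3 CPM, and went the other way, with a log2 ratio of 1.82 (1.65 to 1.99).

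The pairs of collagens V and VI were lower at P7 in both chains. Col5a1 had 40.1 and 18.2 CPM, a log2 ratio of −1.14 (−1.22 to −1.06), and Col5a2 had 113 and 63.4 CPM, a log2 ratio of −0.84 (−0.88 to −0.79). Col6a1 had 55.2 and 25.3 CPM, a log2 ratio of −1.12 (−1.19 to −1.05), and Col6a2 had 159.9 and 108 CPM, a log2 ratio of −0.56 (−0.60 to −0.53). The sum of the 7 chains was 1311 CPM at P1 and 1865 CPM at P7, a log2 ratio of 0.51 (0.50 to 0.52), so the higher total came from Col3a1. In all, 2 of 7 members were higher at P7 by 2-fold or more, against 9.74% of 8222 genes with at least 10 CPM at either age, and 2 of 7 were lower by as much, against 6.57%. The median log2 ratio of the members was −0.70, beside 0.13 over all genes tested.

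The classes took different shares of the libraries at the ages. When each class was given its P1 share of UMIs at both ages, over 10 classes, the log2 ratio was −1.37 for Col1a1, 0.81 for Col3a1, −1.35 for Col5a1, −1.28 for Col6a1 and 0.20 for the sum.

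The Gpc3-Dcn fibroblast-like class, gated by Gpc3, Dcn, Lum, Dpt, Pdgfra and other stromal genes, held 20.3% of kept cells at P1 (2590 cells) and 26.7% at P7 (3353 cells), yet 50.2% and 59.6% of the member UMIs. Against all other kept cells of the P1 library, Col1a1 was 5.86-fold higher in this class, Col6a1 5.598-fold, Col3a1 3.99-fold, Col1a2 3.73-fold, Col5a1 3.13-fold, Col5a2 2.96-fold and Col6a2 2.72-fold. At P1 all 6 of the members that reached 10 CPM were higher by 2-fold or more, against 4.8% of 7828 genes. At P7 this held for 6 of 7, against 4.93% of 8014 genes. The exception at P7 was Col1a1, which was 1.33-fold higher in the class than in the other cells, beside 5.12-fold for Col6a1 and 4.64-fold for Col3a1.

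**Figure D1:**
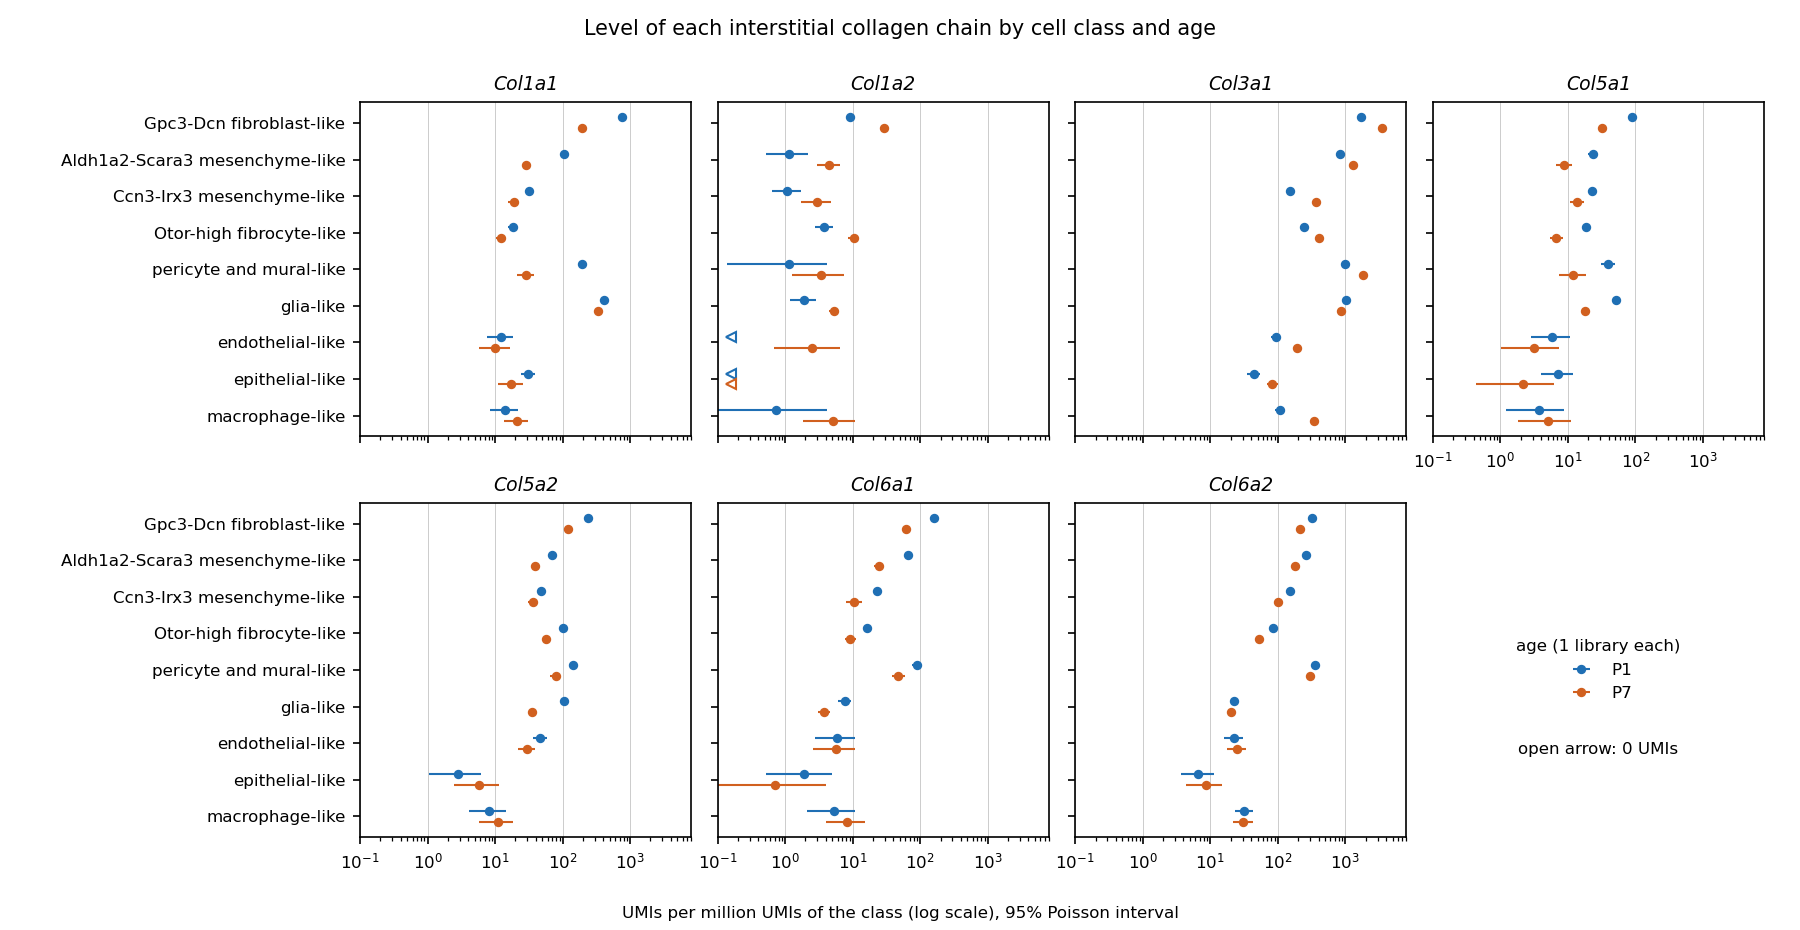
Level of each chain (CPM of the class, log axis) in 9 marker-gated classes at P1 and P7, 1 library each; lines are 95% Poisson intervals, some of which run past the left edge, and open arrows mark 0 UMIs. Col3a1 sits to the right of every other chain in the fibroblast-like class (1707 and 3454 CPM). Col1a1 of glia-like cells (407 and 336 CPM) is lower than in the fibroblast-like class at P1 (760 CPM) and higher at P7 (192 CPM).

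Within the Gpc3-Dcn fibroblast-like cells the ages differed more in Col1a1 than over all cells. Col1a1 had 760 CPM at P1 and 192 CPM at P7, a log2 ratio of −1.99 (−2.04 to −1.94). Col3a1 had 1707 and 3454 CPM, a log2 ratio of 1.02 (1.00 to 1.03), and Col1a2 had 9.14 and 29.6 CPM, a log2 ratio of 1.69 (1.46 to 1.94). The chains of collagen I thus differed in opposite directions, and Col3a1, the most abundant chain, was on the side of Col1a2.

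The chain that starts fibrils, Col5a1, had 88.1 and 31.8 CPM in these cells, a log2 ratio of −1.47 (−1.59 to −1.35). Its partner Col5a2 had 241 and 119 CPM, a log2 ratio of −1.02 (−1.08 to −0.95). For collagen VI, Col6a1 had 161 and 61.2 CPM, a log2 ratio of −1.39 (−1.48 to −1.31), and Col6a2 had 324 and 211 CPM, a log2 ratio of −0.62 (−0.67 to −0.56). The summed chains had 3290 and 4098 CPM, a log2 ratio of 0.32 (0.30 to 0.33). In this class 2 of 7 members were higher at P7 by 2-fold or more, against 9.5% of 7864 genes, and 4 of 7 lower, against 6.79%.

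Most Col1a1 UMIs lay in few of the fibroblast-like cells at both ages. Ranked by Col1a1, the top 10% of the fibroblast-like cells held 86.1% of its UMIs at P1 and 91.3% at P7, whereas the top 10% ranked by Col3a1 held 33.4% and 27.0% of the Col3a1 UMIs. Cells were also grouped by a clustering from which the members had been removed. Cluster c7, 165 cells or 1.29% of the P1 cells with Col1a1 itself, Cldn1, Dlk1, Igfbp6 and Mfap5 among its leading genes, had 7454 CPM of Col1a1, 6815 CPM of Col3a1 and 16677 CPM of the summed chains. It held 29.2% of all Col1a1 UMIs at P1 and 10.0% of the Col3a1 UMIs, and the larger cluster c4, led by Penk and Pnoc, held 32.8% of the Col1a1 UMIs. Cluster c7 held 4 cells at P7. Without c7, the log2 ratio of Col1a1 was −0.23 over all kept cells and −1.26 in the fibroblast-like class, and that of the summed chains in the class was 0.62.

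Within the same class, clusters also differed in which collagen led. At P1, c4 had 714 CPM of Col1a1 and 1205 CPM of Col3a1, whereas c3, led by C7, Col6a1 and Edn3, had 62.5 and 1631 CPM. At P7, c28, led by Col15a1 and Lepr, had 56.7 CPM of Col1a1 and 5279.5 CPM of Col3a1 and held 42.1% of all Col3a1 UMIs of that library. Cluster c24 had 303 and 1675 CPM. Its 10 leading genes held Ibsp, Dmp1 and Phex of the bone marker list and 0 markers of the fibroblast-like list, so the cluster itself is left unnamed, although many of its cells passed the fibroblast-like gate. Ibsp was also among the leading genes of c4, beside Mme of the fibroblast-like list. At least 3 of the 8 bone markers were detected in 41 P1 cells and 345 P7 cells. Sp7, an osteoblast regulator, had a UMI in 2 and 12 cells, and Bglap, which encodes osteocalcin, in 101 and 85 cells. The median bone score of the fibroblast-like class was 0 at P1 and 0.0538 at P7, and its part in the results was not tested. Without c24, the log2 ratio in the class was −2.96 for Col1a1, 1.39 for Col3a1 and 0.63 for the summed chains. Cluster c24 held 3 cells at P1, so leaving it out removed cells almost only at P7, while c4 was kept at P1. The fibroblast-like class was made of different clusters at the ages, mainly c4 (45.7% of its cells) and c3 (31.5%) at P1, and c28 (45.3%) and c24 (38.2%) at P7.

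**Figure D2:**
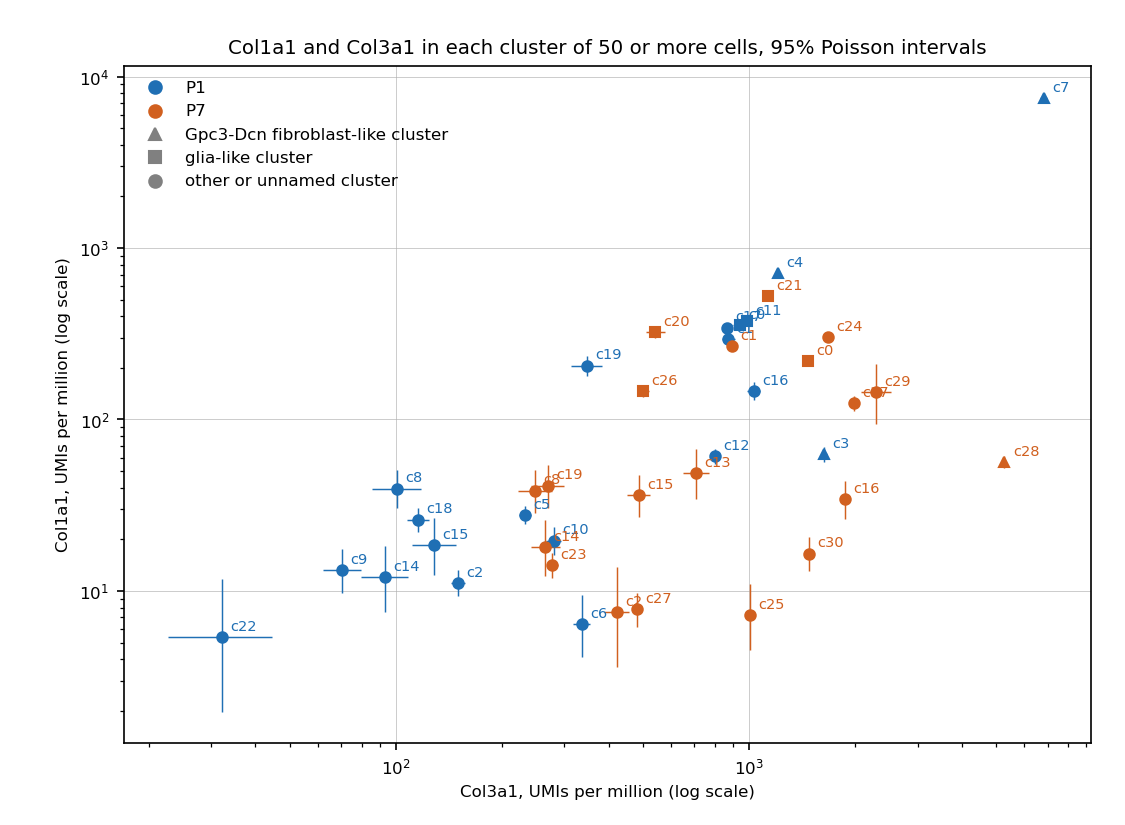
Col1a1 against Col3a1 (CPM, both axes log) in each cluster of at least 50 cells at an age, with 95% Poisson intervals; triangles are Gpc3-Dcn fibroblast-like clusters, squares glia-like ones and circles other or unnamed ones, c24 among them. Cluster c7 at P1 stands apart with 7454 CPM of Col1a1, and c28 at P7 has the highest P7 level of Col3a1, 5279.5 CPM, with 56.7 CPM of Col1a1.

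Cells with at least 1 UMI were counted after thinning every cell to 2000 UMIs, which left out 34 P1 and 155 P7 fibroblast-like cells. Col3a1 was found in 80.7% (79.1 to 82.2%) of these cells at P1 and 89.99% (88.9 to 91.0%) at P7, and without thinning in 94.5% and 96.0%. Col1a1 was found in 19.8% (18.3 to 21.4%) and 10.5% (9.49 to 11.7%), and without thinning in 27.7% and 20.7%. Col6a1 together with Col6a2 was found in 13.8% (12.5 to 15.2%) and 4.22% (3.55 to 4.98%), and without thinning in 48.5% and 26.0%. In macrophage-like cells, which are not a main source of fibrillar collagen but can make collagen VI, and which had a median of 7612 and 7054.5 UMIs, beside 6952 and 7207 in the fibroblast-like class, the thinned shares were 13.1% and 20% for Col3a1 and 1.96% and 3.57% for Col1a1.

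These macrophage-like cells served as the reference level for the other classes, for collagen VI with that limit. They had 108 CPM of Col3a1 at P1 and 339 CPM at P7, 14.1 and 20.9 CPM of Col1a1, 5.20 and 8.37 CPM of Col6a1, and 31.9 and 31.0 CPM of Col6a2. A doublet caller marked 15.0% and 17.5% of them, and without those cells Col3a1 had 38.4 and 123 CPM. Levels of fibrillar chains at or under the macrophage-like ones, doublets kept, are read as background below. For Col3a1 that reading depends on the doublets. Endothelial-like Col3a1 (92.8 and 190 CPM, doublets kept) was under 108 and 339 CPM but above 38.4 and 123 CPM. Epithelial-like Col3a1 was 43.8 CPM at P1 and 82.9 CPM at P7, above the level without doublets at P1 only.

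The Aldh1a2-Scara3 mesenchyme-like cells (957 at P1, 690 at P7) differed between the ages in the same directions as the fibroblast-like class in all 7 chains. Col3a1 had 819 and 1317 CPM, a log2 ratio of 0.69 (0.64 to 0.73). Col1a1 had 103 and 29.2 CPM, a log2 ratio of −1.83 (−2.07 to −1.59), with 180 of its 812 P1 UMIs in 1 cell. Col6a1 had 65.9 and 24.8 CPM, a log2 ratio of −1.41 (−1.68 to −1.14), and Col5a1 had 23.2 and 8.89 CPM. Of 6 members at 10 CPM or more, 0 were higher by 2-fold, against 11.0% of 7902 genes, and 3 were lower, against 4.53%. Most of these cells lay in c12 at P1 and in c30 at P7.

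The Ccn3-Irx3 mesenchyme-like cells (2015 and 763) were the class, of the 6 compared, in which collagen VI weighed most. Col6a2 had 153 and 99.3 CPM, beside 151 and 366 CPM of Col3a1, a log2 ratio of 1.27 (1.19 to 1.36). These Col3a1 levels were not far above the macrophage-like 108 and 339 CPM, doublets kept, which had a log2 ratio of 1.66 (1.38 to 1.94). They were further above the macrophage-like level without called doublets. Col6a1 had 23.2 and 10.5 CPM, a log2 ratio of −1.14 (−1.56 to −0.75). Here 1 of 6 members was higher by 2-fold, against 11.8% of 7998 genes, and 1 was lower, against 4.7%. At P7 more of these cells lay in c23 (27.1%) and c25 (25.2%), clusters that held 5 and 25 P1 cells in all. Cluster c23 scored highest for the Otor-high list (0.139, beside 0.0683 for the Ccn3-Irx3 list). The class ratios thus compare partly different clusters. Clusters c2, which held 60.7% of these cells at P1 and 17.0% at P7, and c19, which held 7.25% and 18.9%, had cells of both ages and differed from each other. In c2, Col3a1 had 149.8 and 421 CPM, but Col6a1 had 24.3 (21.6 to 27.2) and 30.03 (21.5 to 40.9) CPM and Col6a2 183 and 185 CPM. In c19 (154 and 156 cells), Col3a1 had 347 (312 to 384) and 269 (241 to 299.8) CPM, Col6a2 79.7 (63.7 to 98.5) and 49.99 (38.3 to 64.1) CPM, and Col1a1 206 (179.9 to 235) and 41.1 (30.6 to 54.1) CPM, with 12 and 3 UMIs of Col6a1. Col3a1 was thus higher at P7 within c2 and lower within c19, and the lower Col6a2 of the whole class was seen within c19 and not within c2. In the whole class Col1a1 had 32.3 CPM at P1, with 186 of its 543 UMIs in 1 cell, and 21.2 CPM without that cell. How far that cell entered the P1 value of c19 was not tested. At P7 the class had 19.1 CPM of Col1a1, under the macrophage-like 20.9 CPM. The class level is thus read as background, although c19 alone was above it.

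The Otor-high fibrocyte-like cells (1654 and 1439), gated by Otor, Crym, Coch and other spiral ligament genes, had little collagen I. Most of them lay in c10, c5 and c6 at P1 and in c27 and c23 at P7. The leading genes of c6 held Cnmd of the cartilage marker list and 0 markers of the class. Those of c23, which held 36.2% of the class at P7, held 0 markers of the class too. Those of c27, with 54.8% of the class at P7, held Cnmd beside Car3 and Otos of the class list. The median cartilage marker score of the class was 0.0492 at P1 and 0.136 at P7, beside −0.0268 and 0.0266 over all kept cells, whose part in the results was not tested. Over all kept cells at least 3 cartilage markers were detected in 78 and 221 cells. Col1a1 had 18.1 and 12.2 CPM, at or near the macrophage-like level. Col3a1 had 246 and 409 CPM, a log2 ratio of 0.73 (0.67 to 0.80). The P7 value was not far above the macrophage-like 339 CPM with doublets kept, but further above the level without them. Col5a2 was prominent, with 103 and 56.3 CPM against 8.17 and 10.9 CPM in macrophage-like cells, and Col5a1 had 18.4 and 6.73 CPM, a log2 ratio of −1.45 (−1.83 to −1.08). Of 7 members, 1 (Col1a2) was higher by 2-fold or more, against 12.4% of 7794 genes, and 1 (Col5a1) was lower, against 5.61%. Otor RNA itself was widespread, with 1201 and 2412 CPM in macrophage-like cells.

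Pericyte- and mural-like cells (320 and 277), which express Rgs5, Kcnj8 and Abcc9, were rich in collagens III and VI. Col3a1 had 990 and 1794 CPM, a log2 ratio of 0.86 (0.77 to 0.94), and Col6a2 had 358 and 300.1 CPM, a log2 ratio of −0.26 (−0.43 to −0.09). Col1a1 had 191 and 28.7 CPM, but 1 cell held 172 of the 337 P1 UMIs, or 51.0%, and the P1 level without it was 94.0 CPM. Of 6 members, 0 were higher by 2-fold, against 8.84% of 7905 genes, and 2 were lower, against 6.63%. Both ages of this class lay in c16, where Col1a1 had 147 and 34.1 CPM, Col3a1 1030 and 1869 CPM, and Col6a1 99.5 and 50.4 CPM.

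Glia-like cells (1873 and 3765), gated by Sox10, Erbb3, Cdh19 and other Schwann cell genes, were the other large source of fibrillar collagen. Col1a1 had 407 and 336 CPM, a log2 ratio of −0.27 (−0.33 to −0.22), and Col3a1 had 1012 and 870 CPM, a log2 ratio of −0.22 (−0.25 to −0.19). At P7 Col1a1 was thus higher in glia-like than in fibroblast-like cells (336 against 192 CPM), and the glia-like cluster c21 alone held 33.2% of the Col1a1 UMIs of that library. Both chains of collagen V were lower at P7, Col5a1 with 51.6 and 17.6 CPM (log2 ratio −1.55, −1.73 to −1.37) and Col5a2 with 106 and 34.8 CPM (−1.61, −1.74 to −1.48). Of 5 members, 0 were higher by 2-fold, against 10.4% of 7732 genes, and 2 were lower, against 8.16%.

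Collagen VI was low in glia-like cells, with 22.6 and 20.3 CPM of Col6a2 and 7.61 and 3.76 CPM of Col6a1, beside 31.9 and 31.0 CPM and 5.20 and 8.37 CPM in macrophage-like cells. Dcn, a fibroblast proteoglycan, had 38.1 and 174 CPM in glia-like cells and 2020 and 5177 CPM in fibroblast-like cells, whereas Col3a1 of glia-like cells was 1012 and 870 CPM beside 1707 and 3454 CPM. Dcn is a marker of the fibroblast-like gate, so the gating itself sets the 2 classes apart in Dcn. Their ratios of Col3a1 to Dcn therefore cannot show where the Col3a1 of glia-like cells came from, which was not tested. Col1a1 and Col3a1 together were found in 35.3% of thinned glia-like cells at P1 and 33.6% at P7, beside 0.654% and 1.43% of macrophage-like cells, and in 56.2% and 59.3% without thinning, beside 3.75% and 6.49%. The top 10% of glia-like cells held 38.9% and 29.7% of the Col1a1 UMIs, a far flatter spread than in fibroblast-like cells.

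Among glia-like clusters the level differed. At P7, c21, led by Pou3f1 and Sostdc1, had 523 CPM of Col1a1 and 1132 CPM of Col3a1. Cluster c26, with Cldn19 and Pmp2, genes of myelinating Schwann cells, among its leading genes, had 146 and 501 CPM, and c20, with the myelin genes Mag and Prx among its leading genes, had 324 and 543 CPM. At P1, c11, which held 82.9% of the class, had 377 and 983 CPM. Cluster c11 held 9 cells at P7, and c21, c26 and c20 held 5, 1 and 21 cells at P1. The class ratios thus compare mostly different clusters. Cluster c0, also named glia-like, had cells of both ages (238 and 388) and held 3.62% and 4.96% of all Col3a1 UMIs. When clusters stood in for gates, the log2 ratio of Col3a1 in glia-like cells was 0.04 in place of −0.22.

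Endothelial-like cells (159 and 180) had 92.8 and 190 CPM of Col3a1 and 12.3 and 10.1 CPM of Col1a1, both at or under the macrophage-like level. Col5a2, with 46.7 and 29.8 CPM, was above it. Epithelial-like cells (227 and 157) had the lowest summed level of the 9 classes plotted, 93.3 and 117 CPM, with 43.8 and 82.9 CPM of Col3a1 and 6.66 and 8.57 CPM of Col6a2, all under the macrophage-like level. Of the 65 Col1a1 UMIs of the P1 epithelial-like cells (30.9 CPM), 30 lay in 1 cell. Col1a2 had 0 UMIs in epithelial-like cells at both ages, which allows up to 1.43 CPM at P1 and 2.14 CPM at P7, and no ratio is given.

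**Figure D3:**
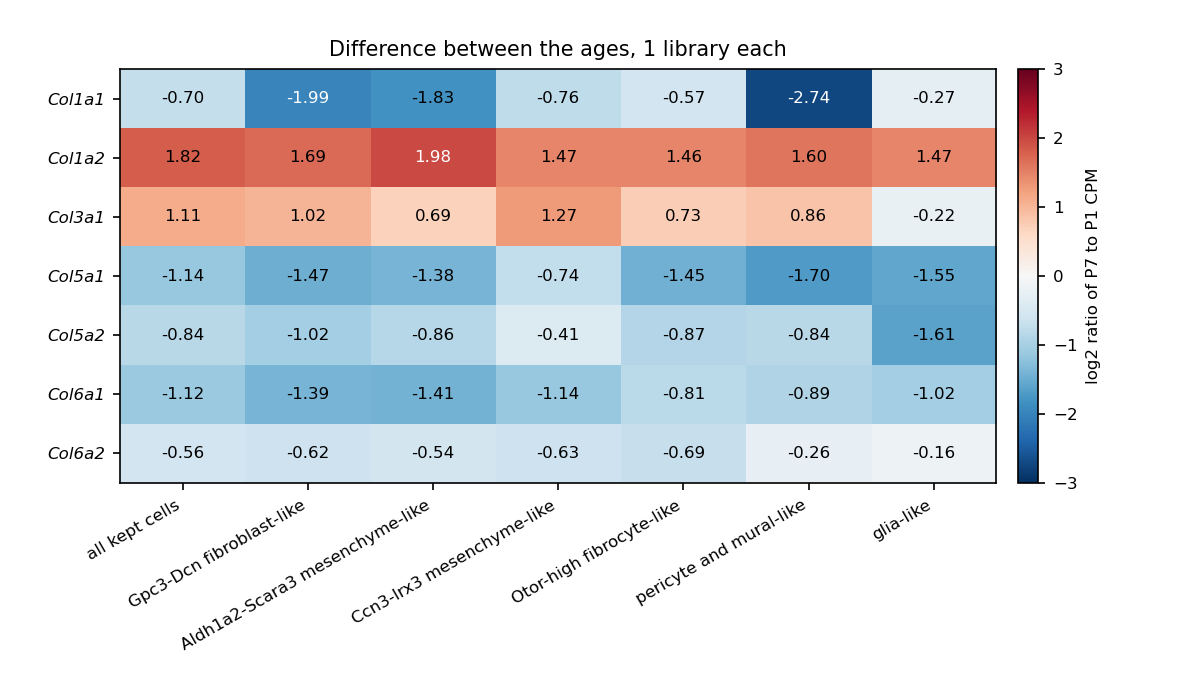
Log2 ratio of P7 to P1 CPM of each chain (rows) over all kept cells and in 6 classes (columns), 1 library an age, red for higher at P7 and blue for lower. Col1a2 is above 0 in every column, Col3a1 in every column but glia-like cells (−0.22), and the other 5 chains are below 0 throughout.

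The balance of the chains differed between the ages too. Of the collagen I UMIs of all kept cells, Col1a1 made up 98.5% (98.4 to 98.7%) at P1 and 92.2% (91.7 to 92.6%) at P7, that is 67.6 and 11.8 Col1a1 UMIs for each Col1a2 UMI. Whether the counted end of Col1a2 was complete in the annotation was not tested. These shares are therefore of counted UMIs and cannot be read as the proportion of chains in the collagen I trimer. In fibroblast-like cells the share was 98.8% (98.6 to 99.0%) and 86.6% (85.7 to 87.5%). Of the 6 classes plotted it was highest in glia-like cells, with 99.5% (99.3 to 99.7%) and 98.5% (98.2 to 98.7%), and lowest in Otor-high fibrocyte-like cells, with 82.8% (77.6 to 87.2%) and 54.2% (48.1 to 60.2%), where Col1a1 was at or near the macrophage-like level. Col1a2 reached 10 CPM in fibroblast-like and Otor-high fibrocyte-like cells at P7 only.

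Within collagen VI, Col6a1 made up 25.7% (25.1 to 26.2%) of UMIs at P1 and 19.0% (18.3 to 19.7%) at P7 over all kept cells, Col6a2 being the rest. Of the same classes the share was highest in fibroblast-like cells, with 33.2% (32.3 to 34.2%) and 22.5% (21.5 to 23.5%). It was 20.1% and 12.1% in Aldh1a2-Scara3, 19.8% and 13.7% in pericyte- and mural-like, and 13.1% (11.9 to 14.4%) and 9.55% (7.37 to 12.1%) in Ccn3-Irx3 mesenchyme-like cells. The intervals of the ages overlapped in the last of these and not in the fibroblast-like cells. In Otor-high fibrocyte-like cells the shares of 15.9% (13.9 to 18.1%) and 14.8% (12.4 to 17.5%) overlapped in their intervals.

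Within collagen V, Col5a1 made up 26.2% (25.5 to 26.9%) and 22.3% (21.4 to 23.3%) of UMIs over all kept cells. In fibroblast-like cells it was 26.8% (25.7 to 27.9%) and 21.1% (19.8 to 22.4%). In glia-like cells it stayed at 32.7% (30.5 to 35.0%) and 33.6% (31.1 to 36.3%), although the level of both chains was lower at P7.

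**Figure D4:**
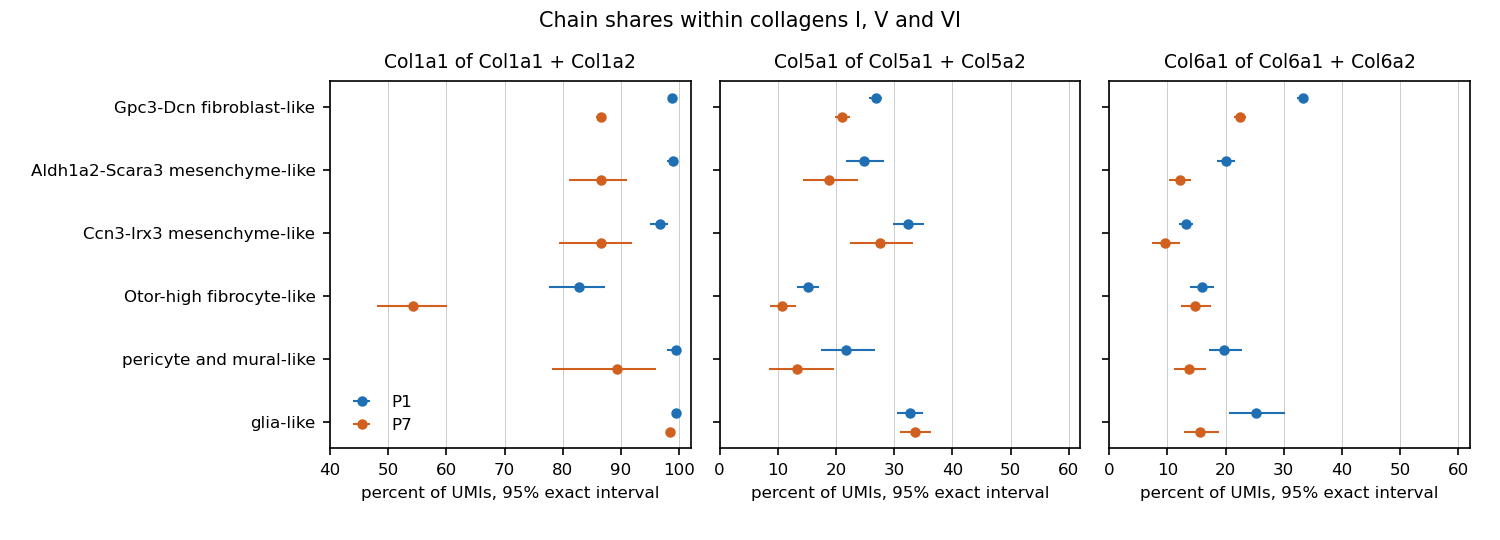
Share of Col1a1 in collagen I, Col5a1 in collagen V and Col6a1 in collagen VI (percent of UMIs of the chain pair, with 95% exact intervals) in 6 classes at P1 and P7; the first panel starts at 40% and the others at 0. The Col6a1 share is lower at P7 in fibroblast-like cells (33.2% and 22.5%), and the Col1a1 share is lowest in Otor-high fibrocyte-like cells at P7 (54.2%).

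As a share of all member UMIs, collagen III went from 52.1% at P1 to 79.3% at P7, collagen I from 19.8% to 9.13%, collagen V from 11.7% to 4.37% and collagen VI from 16.4% to 7.16%. In fibroblast-like cells collagen III made up 51.9% and 84.3%, and collagen I 23.4% and 5.40%. Of collagens I and III together, collagen III was 68.9% (68.5 to 69.3%) and 94.0% (93.8 to 94.1%) in fibroblast-like cells, but 71.2% (70.5 to 71.9%) and 71.8% (71.3 to 72.3%) in glia-like cells. Without c7, the fibroblast-like share at P1 was 76.2%. Collagen VI was 40.9% and 20.1% of the member UMIs in Ccn3-Irx3 mesenchyme-like cells, and collagen V was 24.7% and 11.3% in Otor-high fibrocyte-like cells.

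**Figure D5:**
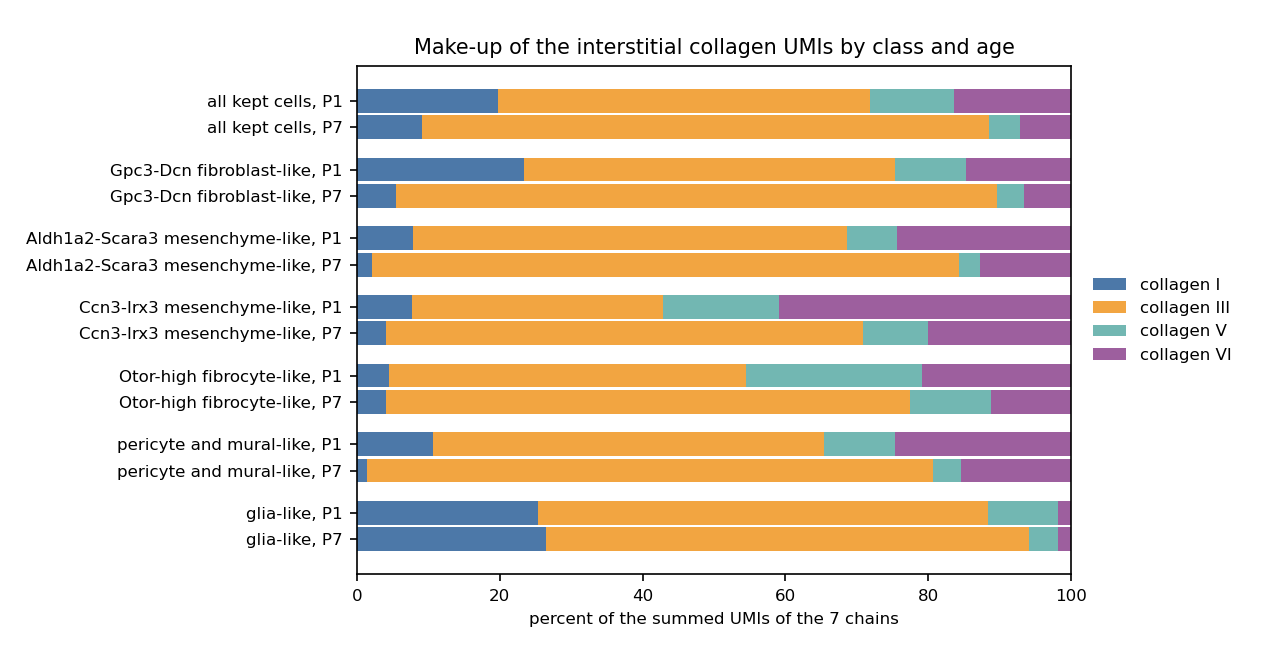
Make-up of the summed UMIs of the 7 chains (percent) by collagen type in all kept cells and 6 classes at P1 and P7. The collagen III band is wider at P7 in each class (51.9% and 84.3% in fibroblast-like cells), and least so in glia-like cells (62.9% and 67.5%).

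Dividing cells were compared within the fibroblast-like class. At P1, 230 dividing cells had 743 CPM of Col1a1 and 1765 CPM of Col3a1, beside 763 and 1699 CPM in the others, and 397 CPM of collagen VI beside 497 CPM. At P7, 181 dividing cells had 2719 CPM of Col3a1, beside 3518 CPM in the others.

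Of 88 listed genes for making, processing, binding and breaking down collagen, 84 were in the matrices and 58 had at least 10 CPM over all kept cells at either age. By 2-fold or more, 8 of these were higher at P7, against 9.74% of all genes tested, and 1 was lower, against 6.57%, with a median log2 ratio of 0.37, beside 0.13 over all genes. In the fibroblast-like class 60 could be compared, of which 7 were higher, against 9.5%, and 4 lower, against 6.79%, with a median of 0.35 beside 0.12. The short lists below are read against the same shares.

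Of the genes for folding and hydroxylation, 2 of 14 were higher and 0 lower over all kept cells, beside 9.74% and 6.57% of all genes. P3h3, of the prolyl hydroxylase family, had 39.1 CPM at P1 and 211 CPM at P7, a log2 ratio of 2.43, and in fibroblast-like cells 70.8 CPM at P1 and 324 CPM at P7. Plod1, a lysyl hydroxylase of procollagen, had 57.9 and 127 CPM, a log2 ratio of 1.14. Tmem38b, a channel of the endoplasmic reticulum needed for collagen modification, was the 1 of 3 secretion genes past 2-fold, with 9.04 and 20.3 CPM. Bmp1, which removes the C-terminal propeptide, was the 1 of 3 propeptide genes past it, with 34.4 and 74.4 CPM and a log2 ratio of 1.11.

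Fibril partners had 3 of 16 higher and 0 lower over all kept cells, beside the same 9.74% and 6.57%, Dcn with 510 and 1622 CPM, the matricellular gene Sparc with 1680 and 3601 CPM and Thbs2 with 20.03 and 42.3 CPM. Dcn is also a marker of the fibroblast-like gate. Of 2 cross-linking genes tested over all cells, 0 passed 2-fold, but in fibroblast-like cells Lox, which oxidises lysines for cross-links, had 245 CPM at P1 and 120 CPM at P7, a log2 ratio of −1.03. Among the receptors, Ddr1, a collagen receptor kinase, had 7.65 and 18.7 CPM over all cells, and Antxr1, which binds collagen VI, had 20.2 and 10.1 CPM. In fibroblast-like cells Ddr1 had 4.64 and 16.2 CPM and Antxr1 23.9 and 10.3 CPM. Of 7 breakdown genes, 0 passed 2-fold in either direction, with a median of 0.27. Of 8 growth factor inputs, 0 passed it over all cells. In fibroblast-like cells Tgfb1 had 13.5 and 30.2 CPM, Tgfb2 116 and 52.1 CPM, and Ccn2, a matricellular target of TGF-β signalling, 286 and 103 CPM.

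Over 22 pairs of class and age and 11132 genes, the genes whose log level was most like that of collagen I were Olfml1 (Pearson r = 0.872), AABR07049695 (0.862 and 0.858 for its 2 identifiers), Gpsm2 (0.826) and AABR07028488 (0.826). Among the members, Col5a1 was closest to collagen I (0.871), followed by Col3a1 (0.679), and Col1a2 reached 0.419. For collagen VI the closest genes were Pcolce (0.923), Csf1 (0.909), Foxd1 (0.906), Meox2 (0.905) and Snai2 (0.904), and the closest members of other types were Col5a2 (0.780) and Col3a1 (0.732). The points share 2 libraries and their depth, so these values are a description only.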

How the data were processed

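Single-cell counts came from 1 library of cochlear duct cells at P1 and 1 at P7. Per the study's methods the authors aligned reads to the rat genome rn6 with Cell Ranger, and per the labels they used bcl2fastq, Cell Ranger and Seurat 3.1.1. The deposited files hold raw UMI counts per gene and barcode, not normalized, and these counts were used as they stood. The study's limits were applied to barcodes: a gene number above 500 and below 5000, a minimum of 500 UMIs, and a mitochondrial share below 25%. UMIs were summed per class and age and divided by the UMIs of those cells (CPM).

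Classes came from marker lists. A cell took the list with the highest score if that was at least 0.1 and exceeded the next by 0.05. Of the kept cells, 3441 (13.6%) lay within 0.02 of a limit. The members, gene lists and markers were chosen with earlier results of these data known, and the scoring rule was set after the files had been seen. Doublets were called with Scrublet (652 cells, 5.10%, at P1 and 839, 6.67%, at P7) and kept. Clusters were formed with scanpy 1.11.5 without the members. Intervals are exact Poisson and Clopper-Pearson ones at 95%. A gene was named as past 2-fold where it had at least 10 CPM at either age, and the named genes were the members and, from each list of collagen-related genes, those past 2-fold. On simulated Poisson counts, which the intervals assume, they covered 95.1% of 7439 genes over all kept cells. That check does not cover uneven levels between cells. Alternatives were other limits on cells, doublets removed, another scaling, equal weight per cell, a stricter gate, clusters in place of gates and other thinning. Those without c7, without c24 and with more gating lists were added after seeing the data. Values of some marker genes are not reported here.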

Additional observations from a re-analysis of the deposited data

Results flagged for a closer look

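Col3a1 differed in direction between classes, and this difference was not tested, as each age has 1 library. Its log2 ratio of P7 to P1 was above 0 in 8 classes, with 1.02 in Gpc3-Dcn fibroblast-like, 0.69 in Aldh1a2-Scara3 mesenchyme-like, 1.27 in Ccn3-Irx3 mesenchyme-like, 0.73 in Otor-high fibrocyte-like, 0.86 in pericyte- and mural-like, 1.04 in endothelial-like, 0.92 in epithelial-like and 1.66 in macrophage-like cells. In glia-like cells it was −0.22, and 0.04 with clusters in place of gates. The macrophage-like levels are the background reference, and the endothelial-like and epithelial-like levels lay under it with doublets kept. Without called doublets the reference was lower. The endothelial-like levels at both ages and the epithelial-like level at P1, which kept their doublets, lay above it.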

How the results depend on the processing

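No paired analysis was possible because each age is 1 library, and for the same reason no replicate could be left out. The summed chains over all kept cells, with a log2 ratio of 0.51, gave 0.58 with all deposited barcodes, 0.43 when scaled without mitochondrial, ribosomal protein and haemoglobin genes, 0.43 with equal weight per cell and 0.69 without c7. In fibroblast-like cells, in place of 0.32, they gave 0.37 with mitochondrial UMIs under 10%, 0.23 under that other scaling, 0.23 with equal weight per cell, 0.27 with clusters in place of gates (c24 counted with the class), 0.37 with bone, cartilage and hair cell lists gating too, 0.63 without c24 and 0.62 without c7. The Col1a1 share of collagen I, with a difference of −6.37 percentage points between P7 and P1, gave −8.63 with mitochondrial UMIs under 10% and −5.48 with equal weight per cell. The Col6a1 share of collagen VI gave −6.69 points and stayed within its counting interval in each alternative. The cause of these shifts was not tested. Of 351 values for ratios of chains and their sums past 2-fold under the alternatives, 351 kept their direction. Of 590 for ratios under 2-fold, 555 did and 35 did not. The largest reported log2 ratio among these was 0.85 in absolute size, that of Col1a1 in epithelial-like cells (−0.85). The other scaling moved the median log2 ratio of all genes from 0.13 to 0.04. Ratios against 0 UMIs, all of scarce chains in small classes, gave no value. Depth limits classes of few cells, where a level of 0 UMIs allows up to 2.51 CPM in macrophage-like cells at P7.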
